A study of Mus musculus with 6 samples.

Results

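The 7 genes described here build the cartilage program: *Sox9*, *Sox5* and *Sox6*, which encode the SOX transcription factors (TFs) of chondrocytes, *Nkx3-2*, which encodes a homeodomain repressor of the early chondrocyte, and *Acan*, *Hapln1* and *Matn1*, which encode proteins of the cartilage matrix. The genes are a named set, and the rule that ties peaks to them uses position only. It takes all deposited peaks whose midpoint lay within 100 kb of the gene body, or within 1 Mb for *Sox9*, whose neighborhood holds few other genes. This gave 16 of 5427 peaks of Gli3 in the mandibular prominence (MNP), 26 of 5752 peaks of Gli3 in the whole face and 198 of 59583 peaks of Hand2 in the MNP. Peaks that share at least 1 bp merged into 216 sites, of which 34 held a Gli3 peak, 182 stood in the Hand2 list alone and 4 stood in all 3 lists.

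The peaks were found by ChIP-seq for the FLAG tag (antibody M2) in pooled facial tissue of CD1 mouse embryos at E11.5, fixed in formaldehyde. The 3 groups were the MNP of Gli3 3XFlagbio embryos, the whole face (frontonasal, maxillary and mandibular prominences) of Gli3 3XFlagbio embryos and the MNP of embryos labelled Hand2 3XFlagbio, with 2 replicates in each group and 6 samples in all. The paper names this second allele Hand2 3xFlag, and 3XFLAGbio only for Gli3. The tag sits in the endogenous gene, so each TF was measured under its own control, in every cell of the tissue that makes it. The text describing the series gives an earlier stage than the sample labels and the paper, whose stage is used here.

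Chondrocytes of the lower jaw arise from cranial neural crest cells. SOX9 is required for their commitment, and SOX5 and SOX6 act with it on enhancers of matrix genes such as *Acan* and *Matn1*. *Hapln1* encodes the link protein that fastens aggrecan, the product of *Acan*, to hyaluronan, and *Matn1* a filament-forming matrix protein. Gli3 is a TF of the Hedgehog pathway, and Hand2 is a basic helix-loop-helix TF that patterns the medial MNP. Gli TFs bind the canonical Gli-binding motif (cGBM) GACCACCC, and Hand2 binds E-boxes (CANNTG), among them CAGATG.

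In mm10 coordinates, *Sox5* (ENSMUSG00000041540.16) spans chr6:143828425-144781977 on the minus strand, *Sox6* (ENSMUSG00000051910.13) chr7:115470872-116038796 on the minus strand and *Sox9* (ENSMUSG00000000567.5) chr11:112782224-112787760 on the plus strand. *Acan* (ENSMUSG00000030607.7) spans chr7:79053483-79115099, *Hapln1* (ENSMUSG00000021613.9) chr13:89539796-89611652 and *Matn1* (ENSMUSG00000040533.7) chr4:130944385-130955475, all on the plus strand, and *Nkx3-2* (ENSMUSG00000049691.8) chr5:41761483-41764501 on the minus strand. The annotation gives *Sox5* 12 transcript starts, *Sox6* 13, *Acan* and *Hapln1* 2 each and the other genes 1, and distances below run to the closest of them.

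The deposited entries are positions, with no height, q-value or read count, so a peak here is present or absent and the depth behind it is unknown. Every entry of the 3 lists merged calls of both replicates, which leaves no spread between replicates, and no difference below has a test. Shares of peaks carry 95% Wilson intervals where these are printed, and they cover counting error only. Counts near the genes are read against the same count over all 21938 protein-coding genes of GENCODE vM21 or over the whole list. The background counts each gene with 100 kb on either side, while *Sox9* has the wider window, which can only raise its chance of a peak.

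Gli3 peaks near the genes held the cGBM at 7 sites and the variant GACCTCCC at 5 others, and these 12 sites are shown because they tie a Gli motif to a gene of the set. Each sequence below is read 5′ to 3′ from the NCBI RefSeq genome of mouse (GRCm38, the mm10 build), with 40 bases on either side of the motif and with the motif in capitals. The 7 cGBM sites were the following. The *Sox9* sequence with 3 motifs in capitals holds 1 cGBM on the printed strand and 2 on the other, where they read GGGTGGTC.
Sox5, chr6:144630869-144630956, minus strand: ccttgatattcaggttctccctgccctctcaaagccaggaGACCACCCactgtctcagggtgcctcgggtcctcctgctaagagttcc
Sox6, chr7:115624726-115624813, plus strand: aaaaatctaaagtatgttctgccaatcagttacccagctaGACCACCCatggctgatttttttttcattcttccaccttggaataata
Sox6, chr7:115860910-115860997, plus strand: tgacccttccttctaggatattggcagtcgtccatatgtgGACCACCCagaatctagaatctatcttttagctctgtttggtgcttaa
Sox9, chr11:113026616-113026703, plus strand: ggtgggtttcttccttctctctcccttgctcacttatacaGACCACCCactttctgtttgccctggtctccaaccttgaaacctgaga
Sox9, chr11:113343871-113343995, minus strand: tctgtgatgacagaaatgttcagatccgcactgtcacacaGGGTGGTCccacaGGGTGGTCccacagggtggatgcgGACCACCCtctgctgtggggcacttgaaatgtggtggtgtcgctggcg
Sox9, chr11:113586603-113586690, plus strand: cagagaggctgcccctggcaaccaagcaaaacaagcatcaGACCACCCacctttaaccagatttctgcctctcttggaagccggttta
Hapln1, chr13:89559740-89559827, minus strand: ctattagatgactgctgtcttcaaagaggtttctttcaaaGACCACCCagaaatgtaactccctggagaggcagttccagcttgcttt

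The first and second *Sox6* sequences differ in which peaks overlap there. The site at chr7:115624726-115624813 lies in an intron of *Sox6*, 27027 bp before the closest transcript start, and was in all 3 lists. Its cGBM lies inside the Gli3 peaks of both tissues but outside the Hand2 peak, which spans chr7:115624799-115625198. The site at chr7:115860910-115860997 lies 1010 bp before another internal transcript start and stood in the Gli3 MNP list only. A Hand2 peak lay beside it without overlap, at chr7:115860356-115860622, with its midpoint 637 bp before the same start. The contrast thus rests on the overlap of 1 bp. Of the 16 Gli3 MNP peaks near the genes, 9 overlapped Hand2 and 12 had a Hand2 peak within 500 bp. In this second *Sox6* site the cGBM stands 2 bp from an E-box and 171 bp from a CAGATG. In the first *Sox6* site it stands 107 bp from an E-box and 418 bp from a CAGATG. The *Sox9* site at chr11:113586603-113586690, in an intron of *Slc39a11* and 804406 bp from *Sox9*, was the other cGBM site in all 3 lists, and its cGBM stands 74 bp from a CAGATG. The *Sox9* site at chr11:113026616-113026703, between genes and 244526 bp from *Sox9*, was bound by Gli3 in the MNP and in the whole face with no Hand2 peak. The sites of *Sox5* (an intron) and *Hapln1* (an intron) and the site with 3 copies (an intron of *Slc39a11*, 561675 bp from *Sox9*) were bound by Gli3 in the whole face only. The closest E-box stood 39 bp (*Sox5*), 57 bp (*Hapln1*) and 12 bp (the closest of the 3 copies) from the cGBM. In the *Sox9* site at 244526 bp it stood 167 bp away. None of these sites held a CAGATG.

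GACCTCCC occurred at 5 sites, each near another gene of the set. The first 3 lie near *Sox5*, *Sox9* and *Acan*.
Sox5, chr6:144723716-144723803, minus strand: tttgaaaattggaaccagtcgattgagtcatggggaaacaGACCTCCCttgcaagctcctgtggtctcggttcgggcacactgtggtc
Sox9, chr11:113710180-113710267, plus strand: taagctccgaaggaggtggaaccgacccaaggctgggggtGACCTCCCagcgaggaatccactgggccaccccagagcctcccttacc
Acan, chr7:78990416-78990503, minus strand: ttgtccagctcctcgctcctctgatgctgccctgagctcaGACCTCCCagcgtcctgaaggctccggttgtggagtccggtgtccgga
The *Sox5* site lies in an intron, 58018 bp from a transcript start, and was bound by Gli3 in the whole face and by Hand2. The *Sox9* site lies 232 bp from the start of *Cpsf4l* by the midpoint of its Gli3 MNP peak and was bound by Gli3 in both tissues. The *Acan* site lies between genes, 63076 bp upstream of *Acan*, and no E-box was found in it.

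The last 2 GACCTCCC sites, 21257 bp upstream of *Matn1* in an intron of *Laptm5* and 19243 bp upstream of *Nkx3-2* between genes, were nearly the same sequence.
Matn1, chr4:130923144-130923231, minus strand: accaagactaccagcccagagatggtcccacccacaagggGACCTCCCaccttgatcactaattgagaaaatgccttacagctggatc
Nkx3-2, chr5:41783767-41783854, minus strand: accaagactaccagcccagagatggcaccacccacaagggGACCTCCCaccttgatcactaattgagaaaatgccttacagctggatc
They share 86 of 88 bases, and the longest identical run is 61 bases. Of the *Matn1* peak 86.1% and of the *Nkx3-2* peak 76.0% is soft-masked as repeat in the RefSeq genome, against a median of 6.96% over the 26 whole face peaks near the genes and 8.12% over the whole list. The 24 bases that begin with GACCTCCC in both occur 44 times in the assembled chromosomes. Of these 44 copies 23 (52.3%) lay inside a Gli3 whole face peak, 7 (15.9%) inside a Gli3 MNP peak and 0 inside a Hand2 MNP peak. All 23 whole face peaks with a copy were soft-masked over more than 50% of their length. The 2 genes had no other Gli3 whole face peak with either 8-mer. Whether reads could be placed at single copies was not tested. This repeat was examined after the values were seen.

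Hand2 sites are shown for *Hapln1*, *Sox5* and *Sox6*, where a Hand2 peak with a CAGATG lay at a transcript start, which is internal to the gene for *Sox5* and *Sox6*. The CAGATG is in capitals, on the strand given.
Hapln1, chr13:89539666-89539715, plus strand: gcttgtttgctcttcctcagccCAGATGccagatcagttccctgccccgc
Sox5, chr6:144210691-144210740, minus strand: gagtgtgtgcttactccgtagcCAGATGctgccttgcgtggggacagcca
Sox6, chr7:115597632-115597681, plus strand: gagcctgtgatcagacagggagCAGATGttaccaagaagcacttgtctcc

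Hand2 peaks stood close to a transcript start of 4 of the 7 genes. The closest midpoint was 9 bp before the start of *Hapln1*, 154 bp after a start of *Sox5*, 380 bp after an internal start of *Sox6* and 587 bp before the start of *Sox9*. For *Acan*, *Nkx3-2* and *Matn1* the closest Hand2 peak was 6484, 14030 and 15412 bp away. A Hand2 midpoint within 1 kb of a transcript start was thus found for 57.1% of the 7 genes, against 35.5% of all protein-coding genes. *Sox5* and *Sox6* have 12 and 13 annotated starts, and the share of all genes was not matched for the number of starts. The *Sox6* peak lies 441280 bp inside the gene, and from the start of its gene record the closest Hand2 peak of *Sox6* was 18556 bp away, so that measure leaves *Hapln1*, *Sox5* and *Sox9*. Gli3 had no midpoint within 1 kb of a start of any of the 7, in the MNP (17.3% of all genes had one) or in the whole face (6.69% of all genes). The closest Gli3 peak to any transcript start of the 7 was the *Sox6* cGBM peak, 1010 bp from an internal start and 177934 bp from the start of the gene record. Measured from the gene records, the closest Gli3 MNP peak of *Sox6* was 54219 bp away and the closest Gli3 peak of the set was that of *Sox9* in the whole face, at 2591 bp.

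Every gene of the set had Hand2 peaks within its window, and so did 89.0% of all genes, so presence alone does not set the 7 apart. Gli3 in the whole face had a peak near 7 of the 7 genes, where 46.1% of all genes had one. *Nkx3-2* counts here only through the copy of the repeat described above, its single Gli3 whole face peak. Gli3 in the MNP had a peak near 5 of the 7, all but *Hapln1* and *Matn1*, where 56.1% of all genes had one. A Gli3 MNP peak that overlapped Hand2 was present near 4 genes (*Sox6*, *Sox9*, *Acan* and *Nkx3-2*; 41.6% of all genes), and a Gli3 MNP peak without Hand2 near 3 genes, *Sox5*, *Sox6* and *Sox9* (31.6% of all genes). This last class rests on the overlap of 1 bp. Its peaks at *Sox5* and *Sox6* had a Hand2 peak within 500 bp, and only those at *Sox9* did not. A Gli3 whole face peak that overlapped Hand2 was present near 6 genes, all but *Nkx3-2* (25.8% of all genes). Sites in all 3 lists were present near *Sox6*, *Sox9* and *Acan* (16.5% of all genes). The shares of all genes are for 100 kb, and for *Sox9* the peaks overlapping Hand2 count only through its wider window. Its site in all 3 lists lay 804406 bp away, and 65.0% of genes had at least 1 such site within 1 Mb. Its 4 Gli3 MNP peaks overlapping Hand2 lay 804431 bp away or farther, and 51.1% of genes had as many or more within 1 Mb.

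**Figure D1:**
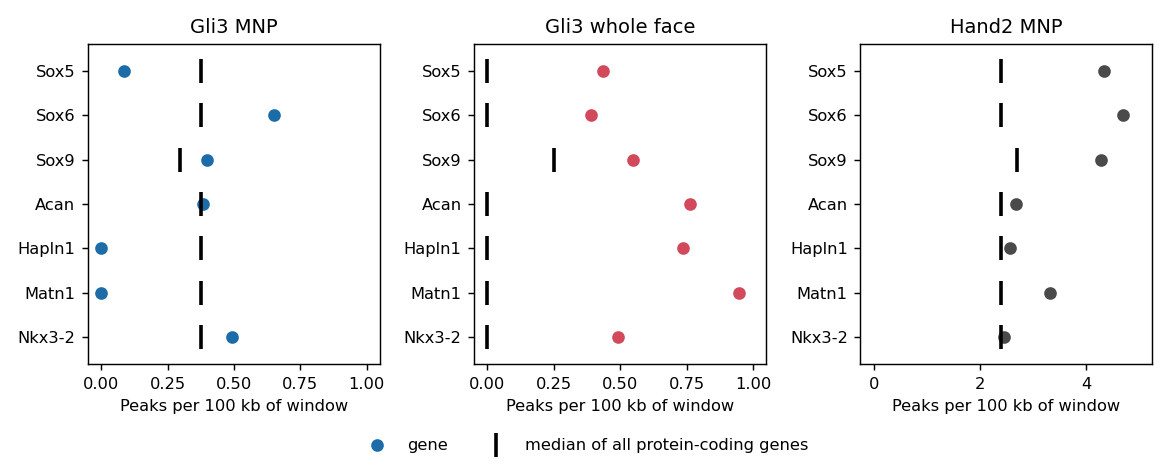
Peaks per 100 kb of window for each of the 7 genes (points) and the median of all protein-coding genes in windows built the same way (bars), for Gli3 in the MNP, Gli3 in the whole face and Hand2 in the MNP. The 3 *Sox* genes carry 4.29 to 4.69 Hand2 peaks per 100 kb, and the other 4 genes 2.46 to 3.32.

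The *Sox* genes carried more Hand2 peaks than the other 4 genes, for *Sox9* in its wider window. *Sox5* had 50 Hand2 peaks and *Sox6* 36, where the median gene had 6, and 99.8% and 99.5% of genes had fewer. Both genes are long (954 and 568 kb), so the window itself is wide. Per 100 kb of window *Sox5* had 4.33 and *Sox6* 4.69 Hand2 peaks, against a median of 2.39, and 80.5% and 84.0% of genes had a lower density. *Sox9* had 86 Hand2 peaks in its window, where the median gene with a window of 1 Mb on either side had 55. Its density was 4.29 per 100 kb against a median of 2.70, and 88.4% of genes were lower. *Acan*, *Hapln1* and *Matn1* had 7 Hand2 peaks each and *Nkx3-2* had 5, all close to the median of 6. Close to *Sox9* the count was of that size too, with 6 Hand2 peaks in the 100 kb before its start and 1 in the 100 kb after. The higher count of *Sox9* thus depends on its window of 1 Mb.

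Gli3 counts were small at every gene. *Sox6* had 5 Gli3 MNP peaks, where 97.3% of genes had fewer, while its density of 0.651 per 100 kb was above that of 72.9% of genes. *Sox5* had 1 Gli3 MNP peak and 5 in the whole face, and the whole face count exceeded that of 98.8% of genes and its density that of 64.6%. *Sox9* had 8 Gli3 MNP and 11 whole face peaks, against medians of 6 and 5 in windows of that size. *Matn1* had the densest Gli3 whole face peaks of the set, 0.947 per 100 kb, from 2 peaks of which 1 is the repeat described above.

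Many Gli3 peaks in these windows lie at the start of another gene. Of the 16 Gli3 MNP peaks, 8 had a midpoint within 1 kb of a start of a gene outside the set, and the gene with the nearest start was a member for 6. The single Gli3 MNP peak near *Acan* lies at *Mfge8*, which encodes a secreted protein that bridges dying cells to phagocytes, 49201 bp from *Acan*. The one near *Nkx3-2* lies at *Rab28*, which encodes a small GTPase, 56612 bp away. In the *Sox6* window 2 lie at *1110004F10Rik*. In the *Sox9* window 4 lie at starts, among them those of *D11Wsu47e*, *Cpsf4l* and *Cdc42ep4*. Of the 26 Gli3 whole face peaks 3 had such a midpoint and a member had the nearest start for 17. For Hand2 these counts were 10 and 143 of 198.

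*Sox9* itself carried Gli3 in its body. A Gli3 peak covered a coding exon of *Sox9* in both tissues, with midpoints 2786 bp (MNP) and 2591 bp (whole face) after the start, at chr11:112784629-112785277, and no Hand2 peak overlapped it. Neither 8-mer occurred in this site. The Hand2 peak 587 bp before the start of *Sox9* did not overlap a Gli3 peak.

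**Figure D2:**
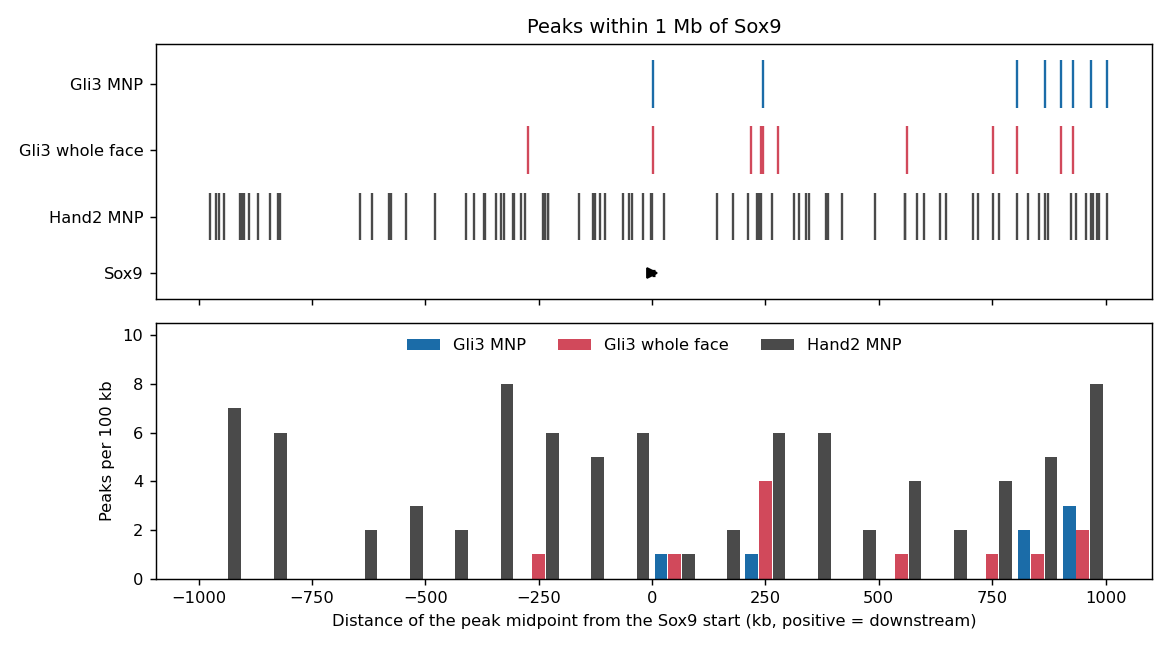
Peaks within 1 Mb of *Sox9* by the distance of their midpoint from its start, as a line for each peak (top) and as counts in steps of 100 kb (bottom), for the 3 lists. Hand2 peaks stand on both sides, while all but 1 Gli3 peak stand in or downstream of the gene.

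The sides of *Sox9* differed in their Gli3 peaks. Counted from its start, within 1 Mb upstream, where no other protein-coding gene starts, there were 0 Gli3 MNP, 1 Gli3 whole face and 45 Hand2 peaks. Within 1 Mb downstream there were 7, 10 and 40, and 7 protein-coding genes start there, all of them more than 500 kb away. The closer 500 kb hold no other gene start on either side, and there Gli3 had 2 MNP and 5 whole face peaks downstream, against 0 and 1 upstream, while Hand2 had 17 peaks downstream and 27 upstream. The only upstream Gli3 peak, in the whole face, lay 272956 bp before *Sox9* with no Hand2 peak.

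Downstream, 4 of the Gli3 whole face peaks fell between 200 and 300 kb from *Sox9*, at 217172, 239597, 244428 and 277781 bp. The peak at 244428 bp carries the cGBM and overlaps a Gli3 MNP peak, and the peak at 239597 bp overlaps a Hand2 peak. The other pair stood in no other list. The same 100 kb held 6 Hand2 peaks. Hand2 was fullest from 300 to 400 kb upstream and from 900 to 1000 kb downstream, with 8 peaks each, and it had no peak from 700 to 800 kb upstream, inside its longest gap of 176 kb.

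The peaks farthest from *Sox9* in the window lie in or at other genes. The farthest Gli3 MNP peak (1003606 bp) and the farthest Hand2 peak (1003546 bp) overlap in an intron of *Sdk2*, which encodes a cell adhesion protein, and the farthest Gli3 whole face peak (927958 bp) lies 165 bp from the start of *Cpsf4l*. Beyond 1 Mb, the next 1 Mb upstream held 2 Gli3 MNP, 1 whole face and 41 Hand2 peaks, and the next 1 Mb downstream 5, 7 and 51.

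**Figure D3:**
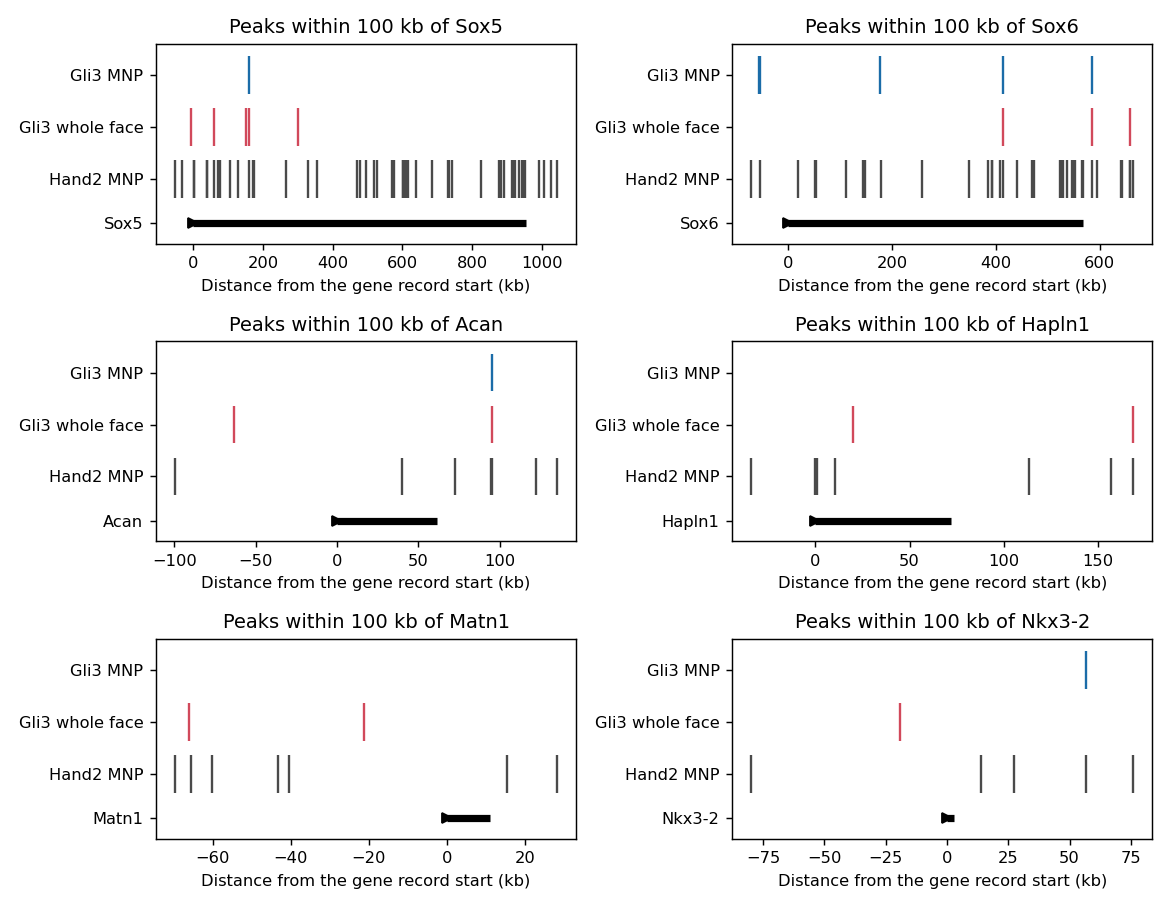
Peaks within 100 kb of the other 6 genes, a line for each peak, by distance of the midpoint from the start of the gene record in the direction of transcription, with the gene body as a black bar. Hand2 lines run along the whole of *Sox5* and *Sox6*, and each of the other 4 genes has 5 to 7.

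In *Sox5* and *Sox6*, whose products lack an activation domain of their own and act beside SOX9, Hand2 peaks lay along the gene. Of the 50 at *Sox5*, 44 lay in the gene body and 43 in an intron, with a median step of 15.4 kb. The densest 50 kb held 8, from 571 to 616 kb after the start, and the longest gap was 114 kb. Of the 36 at *Sox6*, 26 lay in the body, with a median step of 8.66 kb, and the densest 50 kb held 10, from 524 to 569 kb after the start, at the 3′ end of the gene. The 5 Gli3 whole face peaks of *Sox5* lay from 6124 bp before to 300732 bp after the start of the gene record, and 1 of them (160768 bp from a start) overlapped the only Gli3 MNP peak. That site had neither 8-mer and no E-box.

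*Sox6* had 2 sites in all 3 lists, where *Sox9* and *Acan* had 1 each. Of its 5 Gli3 MNP peaks 3 overlapped Hand2, and all 3 of its Gli3 whole face peaks did. The 2 sites were the intronic cGBM site above and chr7:115453050-115454015, between genes and 144363 bp from a start. The second held 3 CAGATG and no Gli 8-mer. The other whole face site, 218037 bp from a start, overlapped Hand2 only.

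At the matrix genes the closest peak was of Hand2, as it was at all 7 genes. The Hand2 list is also the longest, with 59583 peaks against 5427 and 5752 for Gli3. *Acan* had 1 Hand2 peak in an intron, with a CAGATG, 6484 bp before a start, and its other 6 lay outside the gene, 2 of them within 1 kb of a start of another gene. *Hapln1* had 2 Hand2 peaks at its start, 9 bp before and 693 bp after it, and another in an intron at 10681 bp. Its Gli3 whole face peak with a cGBM lay in the same gene at 19826 bp with no Hand2 peak. The second Gli3 whole face peak of *Hapln1* overlapped Hand2 in an intron of its neighbor *Vcan*, so that site belongs to both windows. *Matn1* had 5 Hand2 peaks from 40467 to 69610 bp upstream and 2 downstream, and none in its body. *Nkx3-2* had 5 Hand2 peaks, the closest 14030 bp away, and none of them held a CAGATG.

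Overlap between the TFs near the 7 genes could not be told apart from that of the lists. Of the Gli3 MNP peaks 9 of 16 (56.2%, 33.2 to 76.9) overlapped Hand2, against 61.4% of the whole list. Of the Gli3 whole face peaks 10 of 26 (38.5%, 22.4 to 57.5) did, against 47.6%. Of the Hand2 peaks 182 of 198 (91.9%) stood in no other list, against 91.7%. Of the Gli3 whole face peaks 12 of 26 (46.2%) were in no other list, against 36.8%. All these intervals hold the value of the whole list.

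Promoter peaks made up a smaller share near the 7 genes than in each whole list, a difference that was not tested. Such a share also depends on how many gene starts the windows hold. Within 500 kb of *Sox9*, on either side, no other protein-coding gene starts. Of the Gli3 MNP peaks 8 of 16 (50%) lay within 1 kb of any protein-coding start, against 65.4% of the whole list. The shares were 3 of 26 (11.5%) against 24.5% for Gli3 in the whole face and 17 of 198 (8.59%) against 14.7% for Hand2. Peak widths were close to those of the lists for the whole face (median 219.5 against 222 bp) and Hand2 (458 against 451 bp), and smaller for Gli3 in the MNP (392 against 577 bp). A wider peak has more room for a short motif, so motif shares in the MNP list compare peaks of unlike width.

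**Figure D4:**
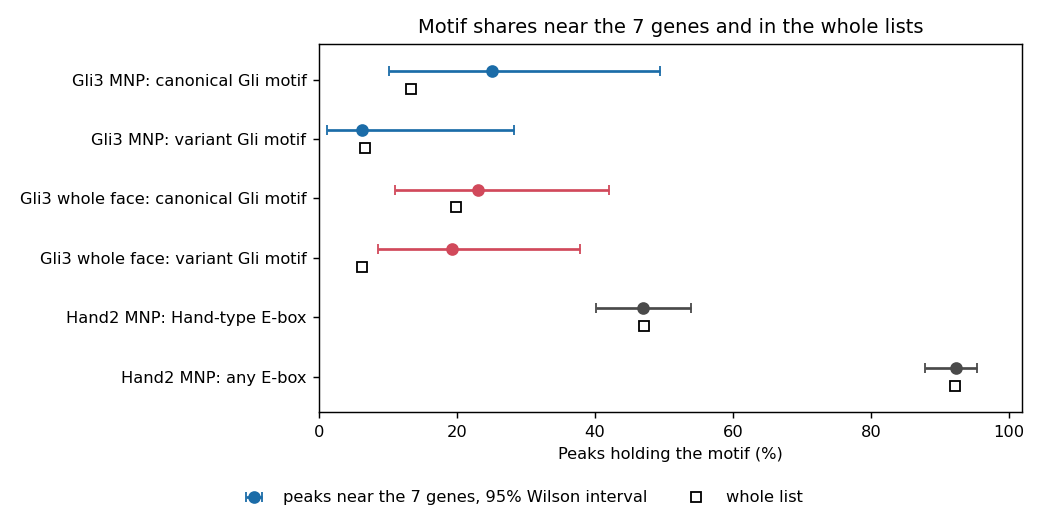
Share of peaks that hold a motif, for the peaks near the 7 genes (points with 95% Wilson intervals, counting error only) and for the whole list (open squares). The canonical Gli motif is GACCACCC, the variant GACCTCCC, the Hand-type E-box CAGATG and any E-box CANNTG. GACCTCCC in the whole face is the only share whose interval leaves out the whole list, and it no longer does so without the soft-masked peaks.

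Motifs were counted as exact matches on either strand. The cGBM was held by 4 of 16 Gli3 MNP peaks (25.0%, 10.2 to 49.5), against 13.3% of the list, and by 6 of 26 whole face peaks (23.1%, 11.0 to 42.1), against 19.8%. GACCTCCC was held by 5 of 26 whole face peaks (19.2%, 8.51 to 37.9), against 6.17%, and 2 of the 5 are copies of the repeat, so they are not separate sequences. Without peaks soft-masked over more than 50% of their length, 3 of 23 held it (interval 4.54 to 32.1%), against 5.48% of the list, and the interval then holds the share of the list. Among the 16 Gli3 MNP peaks only that at *Cpsf4l* held GACCTCCC, against 358 of the 5427 peaks of that list. Among the 34 sites with a Gli3 peak, 14 held GACCNCCC in 16 copies, of which 9 were GACCACCC, 5 GACCTCCC and 2 GACCCCCC. CAGATG was held by 93 of 198 Hand2 peaks (47.0%, 40.1 to 53.9), against 47.1% of the list, and CANNTG, which includes CAGATG, by 183 (92.4%), against 92.3%.

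By gene, the CAGATG share rests on 7 or fewer Hand2 peaks outside the *Sox* genes, and no difference among the genes was tested. It was 20 of 50 Hand2 peaks at *Sox5*, 17 of 36 at *Sox6*, 45 of 86 at *Sox9*, 4 of 7 at *Acan*, 4 of 7 at *Hapln1*, 3 of 7 at *Matn1* and 0 of 5 at *Nkx3-2*. The most copies in a peak were 4, 943026 bp upstream of *Sox9*. Of the 198 Hand2 peaks 2 held a cGBM, both in the *Sox9* window, of which 1 is the site in all 3 lists and the other, 491508 bp downstream, had no Gli3 peak.

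RefSeq promoters (250 bases before to 50 after a start) matched 6 of the 7 genes, all but *Sox9*, with 11 promoters in all. GACCACCC and GACCTCCC occurred in 0 of the 11, against 0.807% and 1.28% of all 32851 promoters. CAGATG occurred in 3 of the 11, in *Sox6* and *Nkx3-2*, against 17.2% of all promoters, and CANNTG in 9, against 72.3%. The CAGATG shown above, just before the GENCODE start of *Hapln1*, was in no matched promoter. The RefSeq promoters of *Hapln1* thus do not hold those bases.

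The wider cartilage set gives a frame for the 7. A list of 44 other cartilage genes (collagens, small proteoglycans, regulators and growth factor receptors) had Hand2 peaks near 44 of 44, with a median of 8 against 6 over all genes. Gli3 MNP peaks were near 26 (59.1%), against 56.1% of all genes, and Gli3 whole face peaks near 30 (68.2%), against 46.1%. A Gli3 MNP peak overlapping Hand2 was near 22 (50%), against 41.6%, one without Hand2 near 10 (22.7%), against 31.6%, and a Gli3 whole face peak overlapping Hand2 near 20 (45.5%), against 25.8%. Sites in all 3 lists were near 14 (31.8%), against 16.5%. Genes of this list that are neighbors share peaks, and no share was tested.

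The closest Gli3 MNP peaks of the list, the smallest distances among its 44 genes, lay nearer to a start than at any of the 7 genes. The midpoint was 63 bp from a start of *Col2a1*, which encodes the main collagen of cartilage, 66 bp from *Col11a1*, a collagen of the same fibrils, and 72 bp from *Vcan*, a large proteoglycan of early mesenchyme. It was 272 bp from *Zfp219*, which encodes a partner of SOX9, and 434 bp from *Pth1r*, the receptor for parathyroid hormone-related protein. The only other genes of the list with a Gli3 MNP midpoint within 1 kb of a start were *Sox8* (462 bp) and *Wwp2* (941 bp). Among all protein-coding genes 17.3% had such a midpoint, so a peak at this distance does not by itself set the cartilage genes apart. The genes with a site in all 3 lists were *Col11a1*, *Col11a2*, *Col9a3*, *Vcan*, *Matn3*, *Hapln3*, *Fmod*, *Dcn*, *Mia*, *Wwp2*, *Pth1r*, *Barx1*, *Runx2* and *Runx3*. *Barx1* and *Pth1r* had 2 such sites, and *Hapln3* is the gene next to *Acan*, with which it shares the site at *Mfge8*.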

How the data were processed

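ChIP-seq was performed on 6 samples (2 per group) of facial tissue at E11.5. The authors mapped single-end reads of 75 bp to mm10 with BWA, called peaks and merged the replicates with bedtools. The submitters' processing notes also name HOMER, and no versions. Each whole face entry names calls made, per replicate, over both input and mock ChIP. The caller of that list was not given in the sources used here, and depth is unknown. The deposited files hold positions and names only.

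Genes and transcript starts came from GENCODE vM21 (protein-coding, chromosomes 1 to 19, X and Y) and sequences from RefSeq GRCm38. A peak belonged to a gene by its midpoint, classes by an overlap of 1 bp, and distances run to the nearest transcript start of the gene. Motifs were exact matches. Soft-masked means lower case in the RefSeq file. No test was run. The members and lists were chosen with earlier results of these data known. Named peaks are the closest of each list, those in all 3 lists, Gli3 peaks with GACCACCC or GACCTCCC and the farthest from *Sox9*. From the cartilage list, the 5 genes with the closest Gli3 MNP peak, the others with one within 1 kb of a start and those with a site in all 3 lists are named. Other peaks named, the repeat, the spacing and the sides of *Sox9* were chosen after their values were seen. Python 3.11.15, numpy 2.4.6, matplotlib 3.10.9 and samtools 1.23.1 were used. On simulated data the motif count and the overlap were right in 400 of 400 cases each. Alternatives changed the window, the assignment, the overlap, the peaks and the motif.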

Additional observations from a re-analysis of the deposited data

How the results depend on the processing

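The counts depend on the window. With 50 kb (500 kb for *Sox9*) there were 7 Gli3 MNP peaks, 3 of them overlapping Hand2, and 17 Gli3 whole face peaks, 5 of them overlapping Hand2. With 200 kb (2 Mb for *Sox9*) these were 26, 16, 40 and 19, and Hand2 had 334 peaks. With 100 kb also for *Sox9* there were 9 Gli3 MNP peaks (5 overlapping Hand2), 16 Gli3 whole face and 119 Hand2 peaks. Another alternative assigned each peak to the single nearest start, if that start lay within 100 kb of the midpoint (1 Mb for *Sox9*). It left 4 Gli3 MNP peaks (1 overlapping Hand2) near 2 of the genes, 12 Gli3 whole face peaks (3 overlapping Hand2) and 111 Hand2 peaks. The limit on distance makes these counts smaller than the counts of nearest starts given above. Keeping only peaks no narrower than their list's median left 3 (3 overlapping Hand2), 13 (5 overlapping Hand2) and 100. Without peaks within 1 kb of a start there were 8 Gli3 MNP peaks, 4 overlapping Hand2. GACCNCCC in place of GACCACCC gave 13 Gli3 whole face peaks. CAGATG was in the middle 200 bp of 48 Hand2 peaks. CANNTG in place of CAGATG, anywhere in the peak, gave 183. Without soft-masked peaks, 3 Gli3 whole face peaks held GACCTCCC, an alternative chosen after seeing the data. Of 57 planned counts under an alternative, 28 stayed within 1.5 times the value reported and 29 did not. Measured from the gene record, the closest peaks of *Sox6* lay 54219 (Gli3 MNP), 414040 (Gli3 whole face) and 18556 bp (Hand2) away, and those of *Acan* 95469 (Gli3 MNP) and 39784 bp (Hand2).

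No paired analysis was possible because both replicates of a group are merged in 1 list and no test was run. For the same reason no replicate was left out. Peaks were not ranked by strength, since the lists hold none.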
